A study of Mus musculus with 12 samples.

Results

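The transcripts described here are those of the fatty acid elongases and desaturases that act on long-chain fatty acids in the RPE, the pigmented epithelium that lies behind the photoreceptors. The members were chosen by gene name from the Elovl and Fads families: the elongases *Elovl1*, *Elovl2*, *Elovl4*, *Elovl5*, *Elovl6* and *Elovl7* and the desaturases *Fads1*, *Fads2* and *Fads3*, in all 9 of the 28591 genes in the table. RPE of 6 WT (C57BL/6J) and 6 rd6 mice (genotype *Mfrp* rd6/rd6), all 1 mo old, was profiled by RNA-seq, with the RPE of both eyes of an animal combined in 1 library. The labels name no treatment, no batch and no allele other than rd6, and they say neither whether the groups were littermates nor the sex of an animal. The rd6 allele is a germ-line splice mutation of *Mfrp*, a membrane protein of the RPE, so every tissue of the rd6 mouse carries it.

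Elongases of the endoplasmic reticulum carry out the condensation step that lengthens a fatty acyl-CoA, and each has its own range of chain lengths and degrees of unsaturation. Front-end desaturases insert double bonds between an existing double bond and the carboxyl end. Acting in turn, *Fads2*, *Elovl5*, *Fads1*, *Elovl2* and again *Fads2* turn dietary linolenic acid into the precursor that peroxisomes shorten to docosahexaenoic acid (DHA). DHA is the main polyunsaturated fatty acid of photoreceptor outer segments. In addition, *Fads2*, *Elovl5* and *Fads1* turn linoleic acid into arachidonic acid. The RPE takes up DHA from the blood, recovers it from shed outer segments and returns it to the retina.

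Because the families consist of related genes, the coding sequences were compared first, to see whether a read of 1 member could be taken for another. Between the 6 elongases the identity of aligned coding bases was 59.3 to 66.9%, and between the 3 desaturases 66.6 to 71.1%. *Elovl2* and *Elovl5*, which overlap in substrates, were the closest elongases, and the longest stretch that they shared was 23 bases. It is shown in capitals with up to 20 bases on each side, from coding positions 329 to 391 of *Elovl2* and 320 to 382 of *Elovl5*.
Elovl2: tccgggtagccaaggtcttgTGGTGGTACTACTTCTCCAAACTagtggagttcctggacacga
Elovl5: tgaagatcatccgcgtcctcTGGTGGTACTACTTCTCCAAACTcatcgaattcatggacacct
*Fads1* and *Fads2* shared at most 17 bases, shown in capitals in the following lines. The capitals begin with the CACCAC that encodes the histidine pair of a histidine box, a catalytic motif of these desaturases (coding positions 1142 to 1198 of *Fads1* and 1133 to 1189 of *Fads2*).
Fads1: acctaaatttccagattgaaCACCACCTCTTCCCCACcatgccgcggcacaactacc
Fads2: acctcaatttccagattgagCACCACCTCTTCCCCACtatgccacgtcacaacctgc
The longest stretch common to any pair of members was 54 bases, between *Fads2* and *Fads3*. No stretch of 100 bases of a member's annotated transcripts occurred in another member, and for 8 of the 9 members none occurred in any other annotated gene. Of the stretches of *Elovl6*, 0.868% also lay in the gene *Gm11295*. On the genome, 53 exon bases of *Elovl1* (1.94% of its exons) overlap *Cdc20* on the opposite strand, and 34 exon bases of *Elovl6* overlap *Gm35986*. The exons of the other 7 members share no base with an exon of another gene. The authors counted with the default settings of Rsubread, and no source used here states how strand and shared bases were handled. A few reads in these overlaps may therefore have been added to, or lost from, the values of *Elovl1* and *Elovl6*.

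Promoters were taken as the 250 bases upstream of the RefSeq start on GRCm38.p6 (the assembly called mm10). Those of *Elovl2* and *Elovl6*, which are among the 3 members with the largest falls between the genotypes (given further on), are shown next, without the bases that lie inside the gene as GENCODE annotates it. That of *Fads2*, the other of the 3, is not shown because 243 of its 250 bases lie inside the GENCODE gene. Capitals mark matches, on either strand, to any of 5 motifs: TCACNCCAC, a form of the sterol regulatory element bound by SREBP factors, the E-box CACGTG, the CCAAT box, the GC box GGGCGG and the nuclear receptor hexamer AGGTCA.
Elovl2, chr13:41220406-41220653, minus strand: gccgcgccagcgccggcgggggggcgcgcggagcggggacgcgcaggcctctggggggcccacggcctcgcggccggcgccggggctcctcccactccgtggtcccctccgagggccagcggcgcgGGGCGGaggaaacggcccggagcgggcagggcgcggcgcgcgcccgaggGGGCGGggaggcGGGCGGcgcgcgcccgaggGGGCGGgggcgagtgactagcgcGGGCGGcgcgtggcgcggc
Elovl6, chr3:129532136-129532354, plus strand: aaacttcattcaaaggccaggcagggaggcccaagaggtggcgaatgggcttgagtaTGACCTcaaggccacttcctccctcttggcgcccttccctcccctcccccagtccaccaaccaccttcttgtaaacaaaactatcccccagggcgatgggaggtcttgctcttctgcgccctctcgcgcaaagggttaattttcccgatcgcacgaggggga
The whole *Elovl2* window held 5 GC boxes and had a GC content of 87.2%, and that of the other *Elovl2* start held none of the motifs at 79.6%, against a median of 52.4% over the windows of all promoters. The *Fads2* window held 1 GC box at a GC content of 64.8%, and the *Elovl6* window held 1 nuclear receptor hexamer and no GC box. GC boxes occurred in 32.7% of the 32851 promoters and the hexamer in 14.0%. The form of the sterol regulatory element was present in 1.05% of all promoters and in none of the 10 windows found for 8 members (*Elovl1* and *Elovl2* have 2 starts each, and *Fads1* had no match). The E-box, found in 6.02% of promoters, occurred in that of *Elovl5* only among the members. CCAAT, found in 33.8%, occurred in 1 window of *Elovl1* and in those of *Elovl5* and *Fads3*. These matches describe letters in these windows, and binding was not measured.

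The libraries were of similar depth. The reads recovered on genes summed to between 29218135 and 33152725 in WT and between 28907262 and 32336530 in rd6, and 3 reads, the limit that a count of 0 allows, corresponded to 2.71 to 3.32 normalized counts. The normalized count used throughout is the number of reads on a gene after division by its library's size factor. *Mfrp* itself, whose allele defines the groups, lay between 30132 and 45442 normalized counts in WT and between 20442 and 29732 in rd6, with no overlap. Of 18 RPE markers, all passed the filter on low values. *Ttr*, which encodes transthyretin and led the list, was at 703801 ± 100426 normalized counts (SD, n = 6) in WT, whereas *Best1*, an RPE chloride channel and a defining marker, was at 19.2 ± 7.94. The libraries with the lowest sum of RPE markers in their genotype were WT 4 (1687770, against 2130420 or more in the other WT libraries) and rd6 5 (1620130, close to rd6 1 at 1647390), and the count of members called is also given without both. In bulk RPE, fewer cells of a type and less RNA per cell cannot be told apart.

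In the rd6 RPE, 6 of the 9 members were lower than in WT and none was higher (limma on log2 of the normalized count + 1, q below 0.05 over 17768 genes). Of all genes tested, 11.6% were lower and 11.4% higher by this rule. The fallen members were the elongases *Elovl2*, *Elovl6*, *Elovl4* and *Elovl5* and the desaturases *Fads2* and *Fads1*. *Elovl1*, *Elovl7* and *Fads3* did not pass. The median log2 fold change was -0.40 over the 9 members and 0.0049 over all genes tested. At a fold limit of 1.75, the limit used in the study, 2 of the 9 remained, *Elovl2* and *Fads2*, beside 2.12% of all genes lower and 4.69% higher at that limit. *Fads2* was just past it, and without WT 1 (log2 fold change -0.81) or WT 2 (-0.79) it was below the limit and 1 of the 9 remained. All 6 rd6 libraries were below all 6 WT libraries for *Elovl2*, *Elovl4*, *Elovl6* and *Fads2*, a separation found in that direction for 5.67% of all genes and in the other direction for 5.77%. All 9 members passed the filter on low values. With WT 4 and rd6 5 left out, the count stayed at 6 lower and 0 higher. Without any 1 of WT 1, WT 2, WT 5, rd6 1, rd6 2 or rd6 3 it was 5, since *Fads1* no longer passed.

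**Figure D1:**
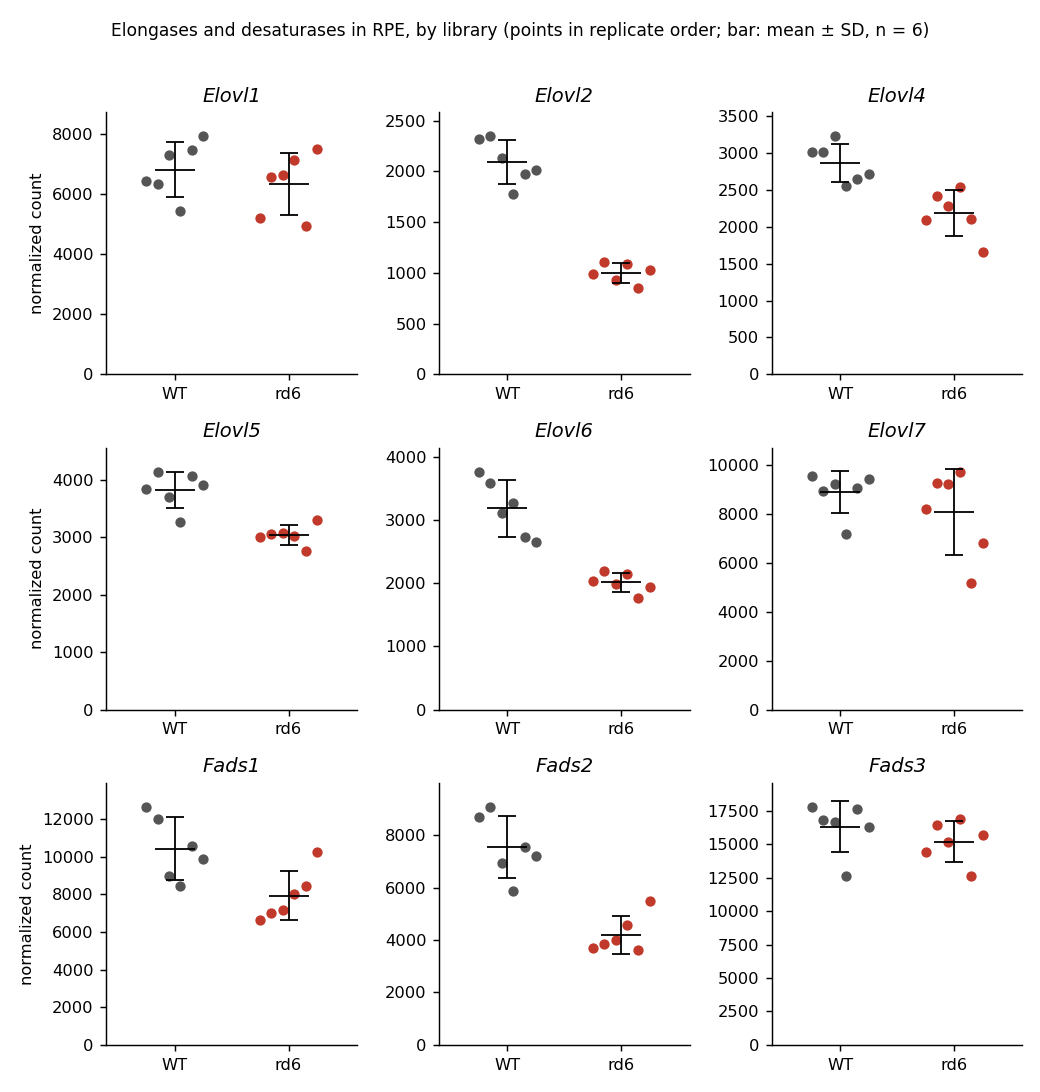
Normalized count of each member in each library, on linear axes from 0, with WT points in gray and rd6 points in red (n = 6 each) and black bars for the mean ± SD. The groups lie apart for *Elovl2*, *Elovl4*, *Elovl6* and *Fads2*, and overlap for the other 5 members.

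The elongases of polyunsaturated fatty acids differed in how far they fell. *Elovl2*, which lengthens the polyunsaturated precursors of DHA, lay between 1772 and 2345 normalized counts in WT (median 2074) and between 854 and 1104 in rd6 (median 1008). The highest rd6 library was well below the lowest WT library. The log2 fold change was -1.07 ± 0.081 (SE, q = 1.5e-06), so that the fitted level decreased by 52.3%, the largest change of the 9 members. *Elovl5*, which acts earlier on shorter polyunsaturated chains, lay between 3265 and 4138 in WT (median 3875) and between 2766 and 3290 in rd6 (median 3036). Of the rd6 libraries 5 were below every WT library, and rd6 6 was just above WT 4. The log2 fold change of *Elovl5* was -0.33 ± 0.061 (q = 0.0018), so that the fitted level decreased by 20.4%. *Elovl4*, which builds the very-long-chain fatty acids of photoreceptors and skin and whose mutation in humans causes a juvenile macular dystrophy, lay between 2556 and 3230 in WT (median 2866) and between 1659 and 2536 in rd6 (median 2201). The groups lay apart by a narrow margin, and rd6 6 was far below the other rd6 libraries. The log2 fold change of *Elovl4* was -0.40 ± 0.096 (q = 0.0098).

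Of the elongases that act on saturated and monounsaturated chains, only *Elovl6* passed the test. *Elovl6*, which extends palmitate and is a target of SREBP-1c in liver, lay between 2643 and 3763 normalized counts in WT (median 3188) and between 1772 and 2184 in rd6 (median 2011), a log2 fold change of -0.65 ± 0.089 (q = 0.0002). The rd6 libraries were close together for this gene (coefficient of variation 7.41%) and all below WT, where it was 14.1%. *Elovl1*, which makes saturated very-long-chain acyl-CoA for sphingolipids, lay between 5428 and 7934 in WT and between 4934 and 7504 in rd6, and the groups overlapped. Its log2 fold change was -0.11 with a 95% interval from -0.37 to 0.14 (q = 0.53). *Elovl7*, which acts on saturated long chains, was the most variable member in rd6 (coefficient of variation 21.9%), with 5174 to 9743 normalized counts there and 7199 to 9563 in WT. Its log2 fold change was -0.17, with an interval from -0.48 to 0.14 (q = 0.43). Both were nearest 0 without rd6 5, with a log2 fold change of -0.04 for *Elovl1* (95% interval -0.28 to 0.20) and -0.05 for *Elovl7* (-0.26 to 0.17). Leaving out each library in turn gave -0.18 to -0.04 for *Elovl1* and -0.23 to -0.05 for *Elovl7*.

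Of the desaturases, *Fads2* fell furthest. *Fads2*, the rate-limiting desaturase at the entry of the polyunsaturated pathway, lay between 5875 and 9072 normalized counts in WT (median 7377) and between 3619 and 5479 in rd6 (median 3910), with no overlap. The log2 fold change was -0.85 ± 0.12 (q = 0.00028), so that the fitted level decreased by 44.5%. *Fads1*, which introduces the last double bond of arachidonic and eicosapentaenoic acid, lay between 8443 and 12633 in WT (median 10218) and between 6647 and 10242 in rd6 (median 7601). Here the groups overlapped, with 4 rd6 libraries below every WT library and rd6 6 above WT 3, WT 4 and WT 6. The log2 fold change of *Fads1* was -0.40 ± 0.12 (q = 0.032), and the call was lost when any of WT 1, WT 2, WT 5, rd6 1, rd6 2 or rd6 3 was left out (q = 0.053 to 0.074). *Fads3*, which desaturates sphingoid bases, lay between 12629 and 17788 in WT and between 12636 and 16873 in rd6, with a log2 fold change of -0.10 and an interval from -0.30 to 0.10 (q = 0.47). It was -0.17 without WT 4 (q = 0.094) and -0.05 without rd6 5 (q = 0.74). The lowest value in each genotype was from WT 4 and rd6 5, and no rd6 library was below every WT library.

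**Figure D2:**
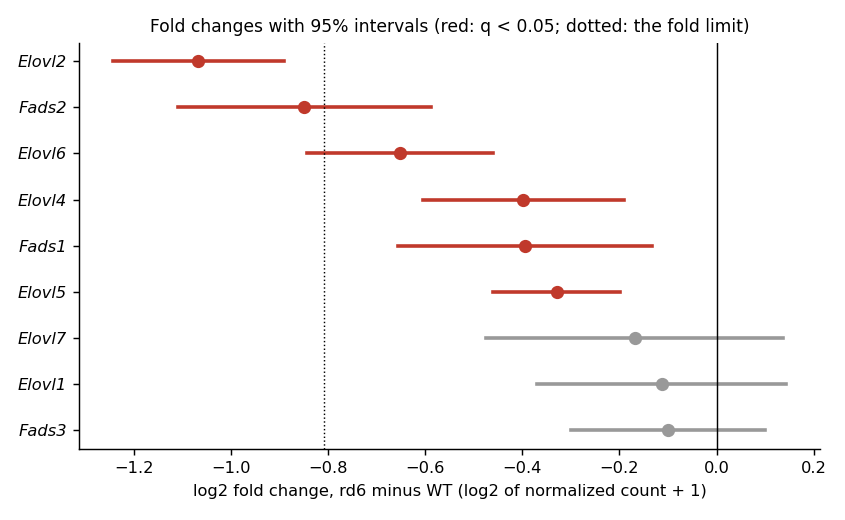
Log2 fold change of each member, rd6 minus WT, on the scale of log2 of the normalized count + 1, with 95% intervals from the limma fit (n = 6 per genotype), in red where q is below 0.05. The estimates run from -1.07 for *Elovl2* to -0.10 for *Fads3*, all on the negative side, and the dotted line marks a 1.75-fold decrease.

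Levels of different members were compared only as normalized counts per kb of exon, with the length taken from the union of all annotated exons in GENCODE M21. In WT, *Fads3* was the most abundant at 4302 ± 500.04 per kb (SD, n = 6), above every other member in every library. *Elovl1* (2503 ± 337), *Fads2* (2292 ± 356), *Elovl7* (2221 ± 217) and *Fads1* (2165 ± 344) followed, and each neighbouring pair of these 4 overlapped in range. *Elovl5* (1084 ± 89.2) and *Elovl4* (947 ± 85.8) came next and overlapped with each other. *Elovl2* (527 ± 55.1) and *Elovl6* (495 ± 69.7) were lowest and also overlapped. Per kb, even these were above 82.0% or more of the genes tested, and *Fads3* was above 98.3% of them.

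In rd6 the order was *Fads3*, *Elovl1*, *Elovl7*, *Fads1*, *Fads2*, *Elovl5*, *Elovl4*, *Elovl6* and *Elovl2*. *Fads2* moved from the third to the fifth place, at 1274 ± 216 per kb, and was below *Fads1* in 6 of 6 rd6 libraries, although the ranges of that pair overlapped. *Elovl2* moved to the last place at 251 ± 24.2 per kb, and was below *Elovl6* (313 ± 23.2) in 6 of 6 rd6 libraries. With the length of the longest transcript in place of the exon union, *Fads1* took the third place in both genotypes. As a share of the summed level of the 3 desaturases, *Fads2* was 26.1% ± 1.25 in WT and 18.3% ± 1.43 in rd6, *Fads1* was 24.7% ± 1.51 and 23.8% ± 3.07, and *Fads3* was 49.2% ± 2.52 and 57.9% ± 4.00 (SD, n = 6). *Elovl2* made up 6.79% ± 0.54 of the summed level of the 6 elongases in WT and 3.90% ± 0.31 in rd6. The share of *Elovl6* was 6.41% ± 1.14 and 4.86% ± 0.39, and that of *Elovl1* was 32.1% ± 2.58 and 35.8% ± 3.59. The share of *Elovl7* was 28.5% ± 0.73 and 30.8% ± 3.89, that of *Elovl4* 12.2% ± 0.96 and 11.2% ± 1.69, and that of *Elovl5* 14.0% ± 0.73 and 13.4% ± 1.44.

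**Figure D3:**
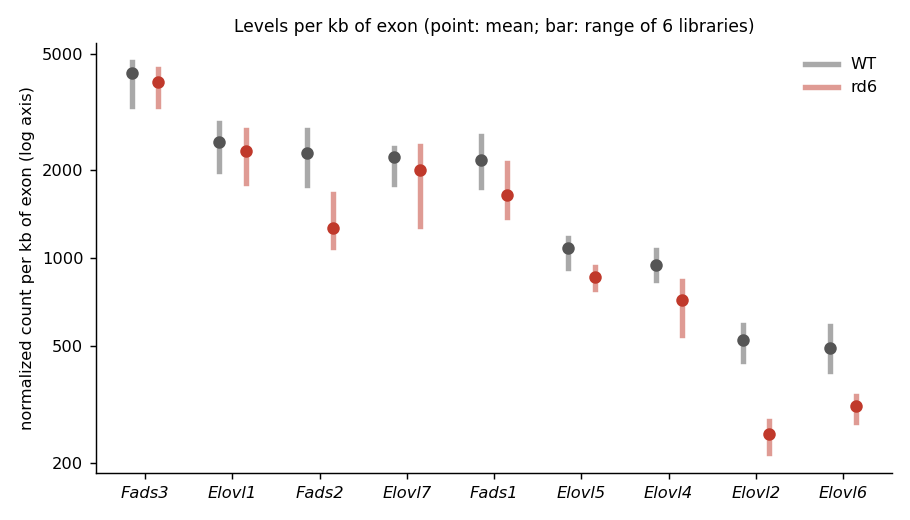
Level of each member per kb of exon in WT (gray) and rd6 (red), on a log axis, with the mean as a point and the range of the 6 libraries as a bar. *Fads3* is highest in both genotypes, and *Elovl2* lies at 527 in WT and 251 in rd6.

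Ratios within a library do not depend on how it was scaled, and they address whether members of the same family changed unequally. Of 6 ratios tested by exact permutation of the genotype over the 12 libraries (924 arrangements, two-sided, smallest possible p = 0.0022, adjusted over the 6), 4 passed. *Elovl2* relative to *Elovl5* was between 0.485 and 0.603 in WT (median 0.555) and between 0.301 and 0.361 in rd6 (median 0.321). All rd6 ratios were below all WT ratios, a log2 difference of -0.74 ± 0.067 (SE, exact permutation p = 0.0022, adjusted p = 0.0043). *Elovl2* relative to *Elovl4* was between 0.660 and 0.778 in WT and between 0.404 and 0.619 in rd6, a log2 difference of -0.67 ± 0.10 (exact permutation p = 0.0022, adjusted p = 0.0043). Thus *Elovl2* fell more than either of these elongases, by more than the spread between libraries.

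*Fads2* relative to *Fads1* was between 0.687 and 0.773 in WT (median 0.722) and between 0.428 and 0.569 in rd6 (median 0.551). The groups lay apart, at a log2 difference of -0.45 ± 0.068 (exact permutation p = 0.0022, adjusted p = 0.0043). *Elovl5* relative to *Elovl6* was between 1.00 and 1.49 in WT and between 1.40 and 1.69 in rd6, a log2 difference of 0.32 ± 0.11 (exact permutation p = 0.030, adjusted p = 0.045). For this ratio WT 5 and WT 6 were within the range of rd6 and the other 4 WT libraries below it, and the call was lost without any of 7 of the 12 libraries (WT 1, WT 2, WT 3, WT 4, rd6 1, rd6 3 and rd6 6). Without WT 4 and rd6 5 the log2 difference was 0.26 and the adjusted p = 0.10 (exact permutation).

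*Fads1* relative to *Fads3* was between 0.538 and 0.713 in WT and between 0.425 and 0.669 in rd6, a log2 difference of -0.30 ± 0.13 that missed the limit (exact permutation p = 0.050, adjusted p = 0.060). The rd6 libraries 5 and 6 were in the range of WT and the other 4 below it. With rd6 5 left out this ratio passed (log2 difference -0.37, adjusted p = 0.029 by exact permutation), as it did with rd6 6 left out (-0.36, adjusted p = 0.032 by exact permutation). *Elovl4* relative to *Elovl1* differed by -0.28 ± 0.16 and did not pass (exact permutation p = 0.095, adjusted p = 0.095), but it passed without rd6 5 (log2 difference -0.35, adjusted p = 0.048 by exact permutation). Without rd6 6 the difference was -0.16 (adjusted p = 0.19 by exact permutation).

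**Figure D4:**
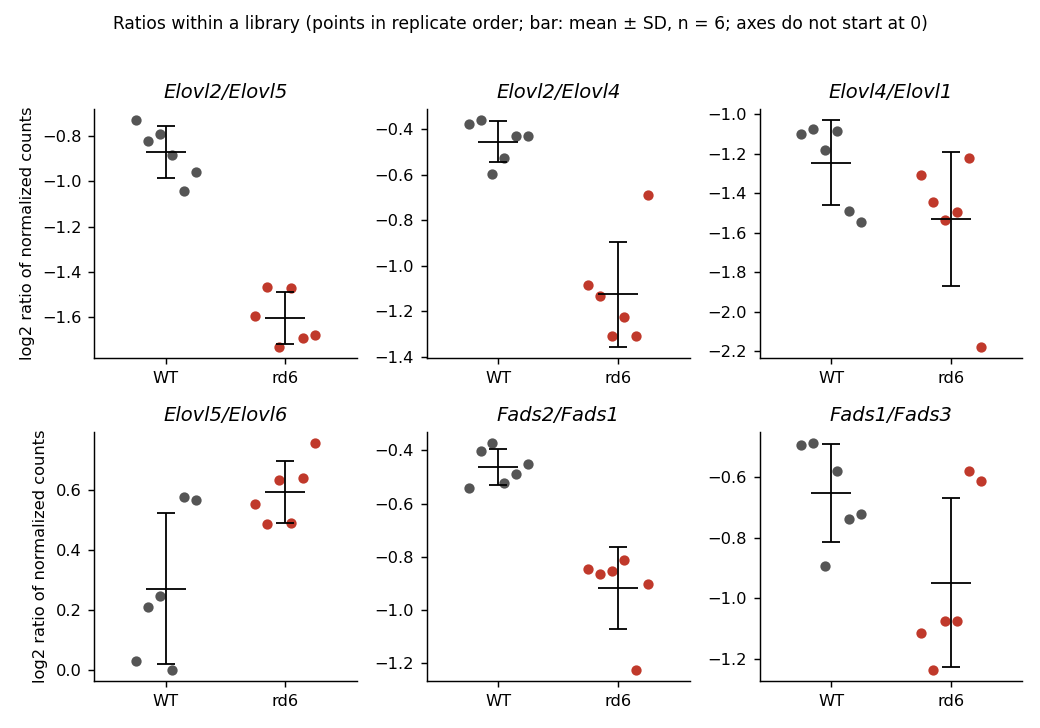
Log2 of 6 ratios of normalized counts in each library, with WT in gray and rd6 in red (n = 6 each) and black bars for the mean ± SD. WT and rd6 lie apart for *Elovl2*/*Elovl5*, *Elovl2*/*Elovl4* and *Fads2*/*Fads1* and overlap for the other 3 ratios.

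The 3 desaturase genes are neighbours on chromosome 19 of GRCm38. *Fads3* (plus strand, 10041569 to 10060110) and *Fads2* (minus strand, 10062765 to 10101746) end 2.65 kb apart, and the starts of *Fads2* and *Fads1* (plus strand, 10182888 to 10196877) are 81.1 kb apart. Across this stretch of 155 kb the outermost genes had log2 fold changes of -0.10 (*Fads3*) and -0.40 (*Fads1*) and *Fads2* one of -0.85. Within 100 kb of these genes, *Myrf*, a membrane-bound transcription factor gene expressed in the RPE, fell from 28777 to 16897 normalized counts in the means (log2 fold change -0.78, q = 0.0011). *Tmem258*, a subunit of the oligosaccharyltransferase, rose (0.40, q = 0.0021), as did *Rab3il1*, which encodes a guanine nucleotide exchange factor of Rab3 proteins (0.57, q = 0.00047). *Fth1*, the ferritin heavy chain, had a log2 fold change of -0.09 (q = 0.50), *Fen1* one of -0.11 (q = 0.46) and *Dagla* one of -0.21 (q = 0.13). These neighbours were picked for mention with their values known.

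For the lists in this and the following paragraphs, the shares over all genes tested were 11.6% lower and 11.4% higher. Of 6 other enzymes of the elongation cycle tested, which reduce and dehydrate the product of the elongases, 1 was lower and 2 were higher. The median log2 fold change of these enzymes was -0.12. Their summed level was 16034 to 18561 normalized counts in WT and 14080.2 to 15972 in rd6, without overlap. *Hsd17b12*, the ketoacyl-CoA reductase, fell from 6510 ± 279 to 4896 ± 254 normalized counts (SD, n = 6; log2 fold change -0.41, q = 4.2e-05), with the groups apart. The dehydratase *Hacd4* rose from 586 ± 54.5 to 855 ± 51.2 (0.55, q = 8.7e-05). Of 5 genes of the cytochrome b5 chain that passes electrons to the desaturases, 1 was lower, *Cyb5b*, an outer mitochondrial membrane form (-0.39, q = 0.00014), and none was higher (the 5 genes had a median of -0.11). *Cyb5a*, the microsomal form, was at 3757 ± 416 in WT and 3484 ± 266 in rd6 (q = 0.35).

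Among 7 other family members and stearoyl-CoA desaturases tested, 1 was lower and 1 higher (median -0.20). Of all genes tested, 11.6% were lower and 11.4% higher. *Scd2*, which makes monounsaturated fatty acids, fell from 26128 ± 3517 to 19639 ± 2365 normalized counts (log2 fold change -0.41, q = 0.0096). *Degs2*, a sphingolipid desaturase and hydroxylase, rose from 7.61 ± 2.64 to 20.4 ± 8.12 (1.30, q = 0.0077), at a level close to the floor. Of 11 genes of the peroxisomal shortening that forms DHA, 2 were lower and none higher (median -0.08). *Scp2*, which encodes a peroxisomal thiolase and a sterol carrier protein, fell furthest (-0.49, q = 0.00054). Of 6 acyl-CoA thioesterases, which release free fatty acids from CoA, 3 were lower and none higher (median -0.41), and *Acot1*, a cytosolic form, fell furthest, from 1559 ± 382 to 596 ± 109 (-1.37, q = 9.4e-05). Of 7 users of very-long-chain fatty acids, 2 were lower and none higher (median -0.14), with the ceramide synthase *Cers5* lowest (-0.55, q = 0.00014).

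Of 15 transcriptional regulators of lipid genes tested, 4 were lower and 3 higher, with a median log2 fold change of -0.05. *Srebf1*, which encodes SREBP-1a and SREBP-1c, the latter a factor that drives elongase and desaturase genes in liver, lay between 5339 and 8469 normalized counts in WT and between 3250 and 5188 in rd6. The groups did not overlap (log2 fold change -0.74 ± 0.14, q = 0.0018). *Rxrg*, a retinoid X receptor, rose furthest (0.68, q = 0.019). Of 11 lipogenic targets of SREBP-1c other than the members, 2 were lower and 1 higher (median -0.09). *Fasn*, the fatty acid synthase that makes palmitate, fell furthest (-0.35, q = 0.0016), and *Pnpla3*, a lipase of lipid droplets, rose from 107 ± 42.8 to 196 ± 54.5 (0.92, q = 0.026). Of 17 sterol targets of SREBP-2, 2 were lower and none higher (median -0.03), and the lower share was near the 11.6% of all genes tested. Among the lower genes was *Sc5d*, the sterol desaturase (-0.53, q = 3.3e-05).

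**Figure D5:**
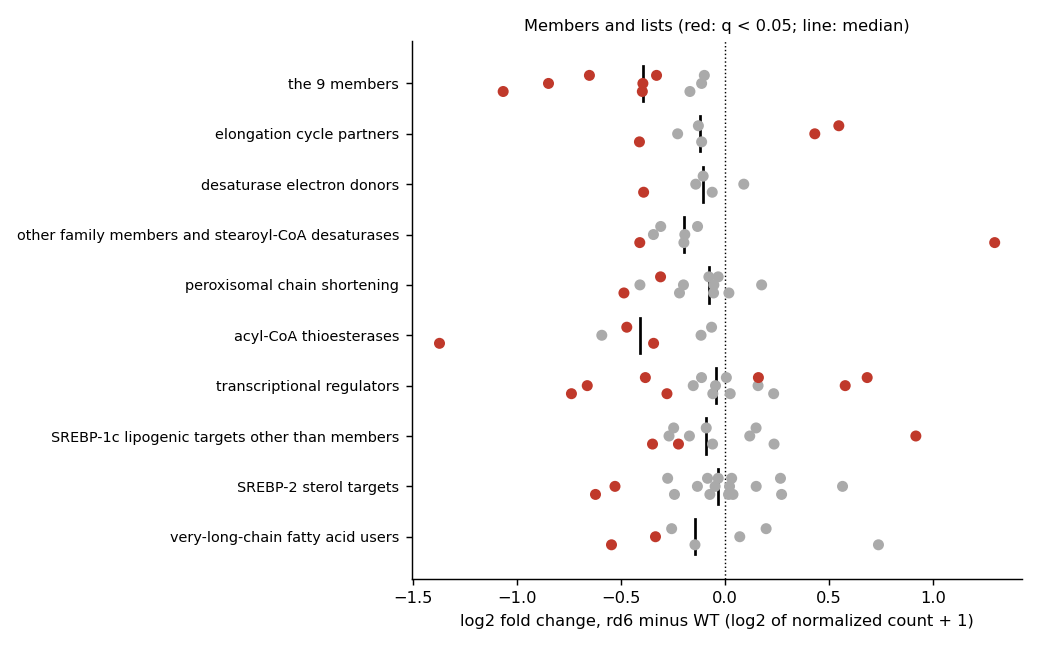
Log2 fold change (rd6 minus WT) of each gene tested in the 9 members and in 9 other lists, in red where q is below 0.05, with the median of each list as a vertical line. The medians run from -0.41 in the thioesterases to -0.03 in the sterol targets, and that of the 9 members is -0.40.

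Of the markers of other cells, those of rods, of microglia and macrophages and of endothelium each had log2 fold changes of 1 sign. As given above, 11.6% of all genes tested were lower and 11.4% higher. All 18 rod markers had a negative log2 fold change and 6 were lower, with summed levels of 79415 to 123334 normalized counts in WT and 50942 to 105666 in rd6. *Abca4*, a lipid transporter of outer segments and the most abundant of that list, fell by 0.21 on the log2 scale (q = 0.042). The rd6 library with the highest rod sum was rd6 5, above 3 of the 6 WT libraries. Of 9 cone markers, 2 were lower and 3 higher, and the summed level overlapped (1962 to 3050 in WT, 1738 to 3019 in rd6). *Gnat2*, the cone transducin and the most abundant of these, was at 819 ± 122 and 888 ± 207 (q = 0.68).

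Of 16 markers of microglia and macrophages, 15 were higher and none lower. The exception was *Csf1r*, the receptor of colony-stimulating factor, the most abundant at 17256 normalized counts in WT and 18741 in rd6 (q = 0.38). The median log2 fold change of the 16 was 2.71. Summed levels, most of which are *Csf1r* in WT, were 16915 to 22684 in WT and 29617 to 47353 in rd6. Of 10 endothelial markers, 6 were higher and none lower, with sums of 8097 to 15245 and 11566 to 28083. *Vwf*, which encodes von Willebrand factor, had the highest count of these in WT (3108, and 4157 in rd6, q = 0.35). Of 9 markers of Müller glia and astrocytes, 2 were lower and 2 higher, and *Clu*, a secreted chaperone that RPE also makes, rose by 0.60 on the log2 scale (q = 0.0032) and made up most of their summed level (250967 to 312417 in WT, 351888 to 413178 in rd6). Of 10 markers of choroidal stroma and mural cells, 1 was lower and none higher, with sums of 18884 to 27416 and 13072 to 25991, and the matrix proteoglycan *Dcn* was the most abundant (log2 fold change -0.63, q = 0.070). Of the 18 RPE markers, 6 were lower (*Rgr*, *Lrat*, *Rpe65*, *Rlbp1*, *Kcnj13* and *Rrh*) and 2 higher (*Dct* and *Slc16a3*). Their summed level in rd6 was 0.845 times that in WT. Most of that sum was *Ttr*, at 703801 normalized counts in WT and 834620 in rd6, and *Rgr*, at 622536 and 338693. The part of these cell types in the falls of the 6 members was not tested.

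Within the members, the libraries differed in a shared way. WT 4 had the lowest value of its genotype for 8 of the 9 members and rd6 5 for 7 of the 9, and these are the libraries with the lowest RPE marker sums given above. After each genotype's mean was taken out, *Fads1* and *Fads2* had the highest correlation of any pair of members over the 12 libraries (Pearson r = 0.87), followed by *Elovl2* and *Fads3* (0.82). *Elovl4* correlated with *Fads1* at -0.29. These are descriptions over 12 libraries that share their scaling.

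Over all 12 libraries, the genes other than members whose log2 level was most like that of *Elovl2* were *Tgfa*, which encodes a growth factor (Pearson r = 0.995), *Tspan2*, a tetraspanin gene (0.991), and *Dzip1*, a gene of the ciliary base (0.987). Their 6 rd6 libraries were likewise all below WT. Most like *Fads2* were *Sema3c* (0.992), which encodes a semaphorin, *Fzd4* (0.988), a receptor of Wnt proteins and norrin, and *Azin2* (0.987), a regulator of polyamine uptake. Most like *Elovl4* were *Fam102b* (0.952), *Foxo4* (0.939), a forkhead factor gene, and *Arhgef10l* (0.936). Much of such a correlation is the step between the genotypes, and after the genotype means were taken out these values were 0.77 to 0.96.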

How the data were processed

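RPE of both eyes of each mouse gave 1 stranded total-RNA library, sequenced as read pairs, from 6 WT and 6 rd6 mice. The authors aligned and counted the reads with Rsubread on mm10 and normalized them with DESeq2 (versions are not given in the sources used here). The deposited signal of a gene in a library is its count of reads after division by a size factor. The deposited table also holds the mean over all libraries, the log2 fold change with its error, a test score, p-values and adjusted p-values from the authors' comparison. None of these was used.

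All values were whole multiples of 1 read (100% within 0.001 reads), so reads were recovered. No library differed from another by sampling noise alone (66 pairs, with a chi-square of at least 8.86 per gene). The main test was limma 3.58.1 (lmFit, eBayes with trend, R 4.3.3) on log2(value + 1) for the 17768 genes whose mean reached 10, with Benjamini-Hochberg q below 0.05 over all of them, run on simulated data first. Fold changes on this scale understate those of low genes. edgeR 4.0.16 and DESeq2 1.42.0 ran on recovered reads as alternatives. Other alternatives were pseudocounts of 0.1 and 10, other filters, TMM, the replicate number as a block and leaving out each library. Leaving out WT 4 and rd6 5 together was added after seeing the data. The labels do not say how animals were sampled beyond replicate numbers, so p-values measure the spread between these 12 libraries.

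Exon lengths came from GENCODE M21, which has 28545 of the 28591 genes, and promoters from RefSeq. Coding sequences were aligned with Biopython 1.88. The members and lists were chosen with earlier results of these data known. Named genes are the 9 members, the largest rise and fall called in each list, the most abundant marker of each cell type, *Mfrp*, and the 3 genes most correlated with each of *Elovl2*, *Elovl4* and *Fads2*. *Sc5d*, *Cyb5a*, *Best1*, the RPE markers called lower or higher and the neighbours of the Fads genes were named after their values were seen. Not every gene selected in this way is reported. *Elovl3* and *Hnf4g* were not used here, and 7 listed genes were below the filter (*Tecrl*, *Cyb5r2*, *Acot3*, *Acot5*, *Baat*, *Pnpla5* and *Fa2h*).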

Additional observations from a re-analysis of the deposited data

Results flagged for a closer look

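Of 30 sets of 6 values examined (9 members and 6 ratios in each genotype), 5 held a library far from the others of its genotype, where the gap to the nearest library exceeds 0.625 of the whole range. Chance gives about 1 in 20 such sets. WT 4 stood apart for *Elovl7*, at 7199 normalized counts with the next WT library at 8946, and for *Fads3*, at 12629 with the next at 16286. It is also the WT library with the lowest RPE marker sum, and the part of that in these values was not tested. Among the ratios, rd6 6 stood apart for *Elovl2*/*Elovl4*, at a log2 ratio of -0.69 with the next at -1.08, and for *Elovl4*/*Elovl1*, at -2.18 with the next at -1.53. Both hold the low value of *Elovl4* in rd6 6, 1659 normalized counts. rd6 5 stood apart for *Fads2*/*Fads1*, at a log2 ratio of -1.22 with the next at -0.90. Without rd6 5 the difference in that ratio between the genotypes was -0.39 (exact permutation, adjusted p = 0.0043).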

How the results depend on the processing

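No direction reversed under any alternative. The calls of *Elovl2*, *Elovl4*, *Elovl5*, *Elovl6* and *Fads2* held under all 21 alternatives, and *Elovl1*, *Elovl7* and *Fads3* were called under none of them. From 5 to 6 members were lower under every alternative and 0 higher. Leaving out each library in turn gave a log2 fold change of *Fads1* from -0.47 to -0.34 (q = 0.0099 to 0.074). The same gave log2 differences of 0.27 to 0.38 for *Elovl5*/*Elovl6*, of -0.35 to -0.16 for *Elovl4*/*Elovl1* and of -0.37 to -0.24 for *Fads1*/*Fads3*, whose calls changed as given with them. With WT 4 and rd6 5 both left out, the log2 difference of *Elovl5*/*Elovl6* was 0.26 (adjusted p = 0.10, exact permutation) and that of *Fads1*/*Fads3* -0.35 (adjusted p = 0.048, exact permutation). The cause was not tested.

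When the replicate number was added as a block, the log2 fold change of *Fads1* was -0.40 with an adjusted p of 0.090 from limma, and 5 members stayed called. Same-numbered WT and rd6 libraries are from different animals and share only a number. Their deviations from the genotype means correlated at -0.74 to 0.31 across genes (mean -0.25 over the 6 numbers). Over all genes the block left 1489 lower and 1453 higher, against 2062 and 2024.

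Per kb of the longest transcript, the levels of *Elovl1* (3767 in WT and 3498 in rd6), *Elovl5* (1372 and 1090.2), *Fads1* (3010.4 and 2290) and *Elovl6* in rd6 (338) moved by more than 1 SD, since these transcripts are shorter than the exon union. Leaving out 1 library put the number of genes lower by 1.75-fold at 312 to 532, against 376.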
